A study of Mus musculus with 12 samples.

Results

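The miR-140 hairpin gave 2 of the 689 miRNA entries in a table of small RNAs from AGO2 pull-downs and their controls, named mmu-miR-140 and mmu-miR-140*. The entry with the star had more reads than its partner in all 4 groups measured. Both entries were taken by name and were chosen by the strand order itself, a mean count of the star entry above that of its partner in these same columns, which is therefore given as a description, with no test. The cells were mouse embryonic stem cells of passages given on the labels as 8-15, kept on gelatin with leukemia inhibitory factor, and all of them carried an AGO2 transgene with HA and FLAG tags under doxycycline control. The labels do not say whether the line was 1 clone. The groups were the nuclear fraction with doxycycline, the nuclear fraction without it, the total fraction with doxycycline and the total fraction without it, in 3 libraries each and 12 in all. Doxycycline was given at 2.5 ug/ml for 15 h, and the AGO2 pull-down with the anti-FLAG M2 antibody was done in every group. Cells without doxycycline were the control for small RNA recovered without the induced protein. The labels say total where the protocol says cytoplasmic, and the name total fraction is kept. The table gave 1 mean per group. No difference could be set against the spread between libraries, and every interval is a 95% interval for counting error in PCR reads without molecular identifiers.

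A miRNA hairpin is cut into a short duplex, and AGO2 keeps either strand of it as the guide that pairs with target RNA. In the older naming used in the table the star marked the strand thought to be the rarer product, and later names give the arm instead: miR-140* is miR-140-3p, and its partner is miR-140-5p. In mice miR-140 is best known from cartilage, where it is abundant in chondrocytes and its loss causes defects of skeletal growth. Its hairpin is carried in the gene of the ubiquitin ligase Wwp2.

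The hairpin is shown because both strands measured here come from it. It is 70 bases long and lies on GRCm38, the assembly also called mm10, at chr8:107551244-107551313 on the plus strand (sequences from RefSeq, build GRCm38.p6). In GENCODE vM21 this is inside Wwp2 (chr8:107436365-107558595, plus strand), in intron 16 of the 24-exon coding transcript and in introns of the other coding transcripts that span it, and it also falls in an exon of a retained-intron transcript. Capitals mark miR-140-3p, bases 45 to 65 of the hairpin, in the first line. Capitals mark the seed, bases 2 to 8 of the mature strand, in the line below it.
Mir140 hairpin: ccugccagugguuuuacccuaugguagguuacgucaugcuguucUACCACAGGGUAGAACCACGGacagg
miR-140-3p (miR-140*): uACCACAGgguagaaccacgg
In the lowest-energy fold predicted with RNAfold, 20 of the 21 bases of miR-140-3p were paired with bases 5 to 26 of the opposite arm, 19 of them as Watson-Crick pairs and 1 as a G-U pair. Among 1679 mature mouse miRNA names in the RefSeq table, the seed of miR-140-3p was shared by 1 other, miR-497b.

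The star strand was the more abundant strand in every group. miR-140* had a mean of 486 reads per library in the nuclear fraction with doxycycline (counting interval 461 to 512), 56.3 in the nuclear fraction without it (48.2 to 65.5), 766 in the total fraction with doxycycline (735 to 798) and 66.3 in the total fraction without it (57.4 to 76.2). Its partner miR-140 had 264 reads in the nuclear fraction with doxycycline (246 to 283), 34.3 in the nuclear fraction without it (28.0 to 41.6), 522 in the total fraction with doxycycline (496 to 548) and 50.7 in the total fraction without it (42.9 to 59.4). In these counts, which are not scaled for sequencing depth, both strands were highest in the total fraction with doxycycline and lowest in the nuclear fraction without it. Relative to library totals, both were highest in the total fraction without doxycycline and lowest in the nuclear fraction with it. All 8 of these means became whole numbers of reads when multiplied by the 3 libraries, so these entries show no sign of reads divided with another entry.

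**Figure D1:**
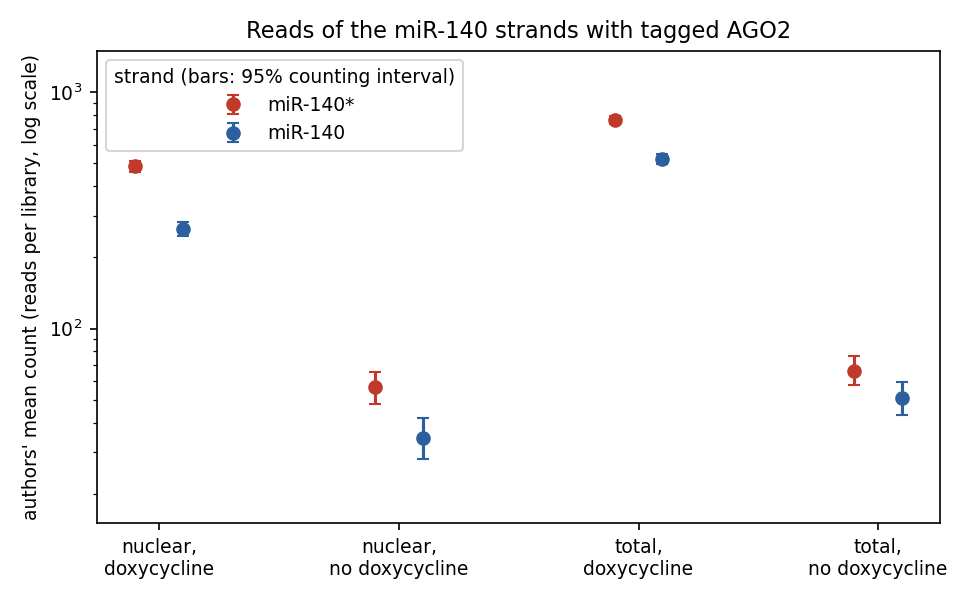
Authors' mean count of miR-140* and miR-140 (reads per library, log scale) in the 4 groups, with bars for the 95% counting interval. miR-140* lies above miR-140 in each group, at 486 against 264 reads in the nuclear fraction with doxycycline and at 766 against 522 reads in the total fraction with doxycycline.

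As a share of the reads from both strands, which needs no scaling between libraries, the star strand took 64.8% in the nuclear fraction with doxycycline (Wilson interval 62.8 to 66.8, 2249 reads over the group). It took 62.1% in the nuclear fraction without doxycycline (56.2 to 67.7, 272 reads), 59.5% in the total fraction with it (57.9 to 61.0, 3862 reads) and 56.7% in the total fraction without it (51.5 to 61.8, 351 reads). With the means read as single libraries, the interval without doxycycline was 51.3 to 70.9 in the nuclear fraction. In the total fraction it was 47.4 to 65.1, which includes an even split. The star strand was thus 1.84, 1.64, 1.47 and 1.31 times its partner in that order of groups. That all 4 ratios exceed 1 follows from how the hairpin was chosen.

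Most other hairpins with a star entry did not have this balance with doxycycline. Of 92 hairpins with at least 10 mean reads on both strands together, the star strand was above its partner in 3 (3.26%) in the nuclear fraction with doxycycline and also in 3 (3.26%) in the total fraction with it. The median star share over those hairpins was 4.27% (nuclear) and 5.80% (total). Besides miR-140 these were miR-154 and miR-485, both from the imprinted Dlk1-Dio3 region, in each fraction; they are named with their values seen. Their star shares were 67.4% and 83.2% in the nuclear fraction and 62.9% and 81.1% in the total fraction, on 160 and 109 nuclear and 324 and 136 total mean reads, against 750 and 1287 for miR-140. The highest star share below an even split was 41.4%, of miR-299, in the nuclear fraction and 42.3%, of miR-28, in the total fraction.

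Without doxycycline star strands above their partner were common. They were 25 of 64 hairpins (39.1%) in the nuclear and 24 of 58 (41.4%) in the total fraction, with median star shares of 38.0% and 37.7%. In these groups miR-140 had the 17th and the 21st highest star share, at 62.1% and 56.7%, after the 3rd highest in each fraction with doxycycline. miR-154 and miR-485 had their star below the partner without doxycycline, at 42.5% and 22.9% in the nuclear and 47.1% and 16.7% in the total fraction, on 5.67 to 23.3 mean reads. The intervals of miR-154 included an even split, at 29.5 to 60.4% (nuclear) and 26.2 to 69.0% (total). Those of miR-485 did not, at 14.6 to 34.0% and 5.84 to 39.2%. Of 54 hairpins with at least 10 mean reads in all 4 groups, miR-140 was the 1 with its star above its partner in all 4, and it was the 1 of 35 with at least 30 reads. That miR-140 meets this follows from how it was chosen. miR-154 and miR-485 were not among the 54, with 5.67 and 6 mean reads in the total fraction without doxycycline.

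**Figure D2:**
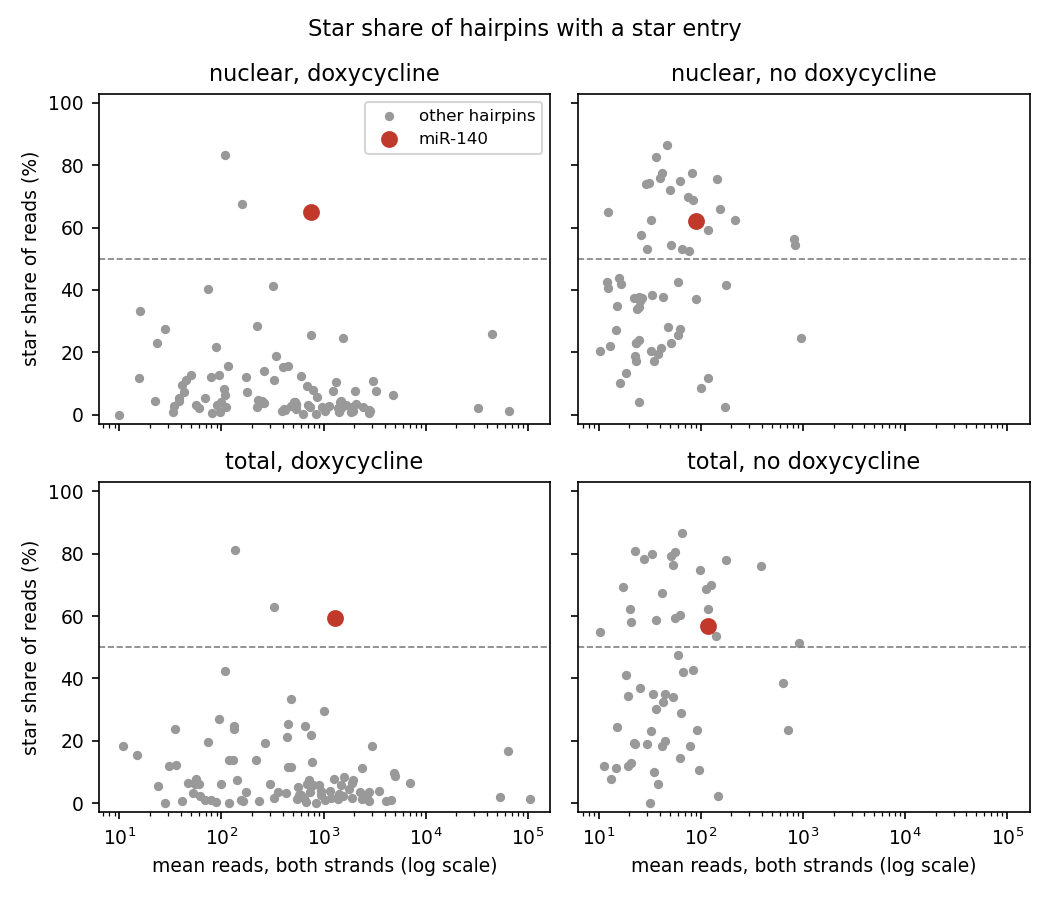
Star share of the reads from both strands (percent) against the mean reads of both strands (log scale), 1 point per hairpin with at least 10 mean reads, in the 4 groups. miR-140 stays above the dashed line of an even split, at 64.8, 62.1, 59.5 and 56.7%, while the median hairpin lies at 4.27 and 5.80% with doxycycline and at 38.0 and 37.7% without it.

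The strand balance of miR-140 was nearly the same with and without doxycycline. The log2 odds ratio of star to partner, doxycycline over none, was 0.17 (exact counting interval -0.22 to 0.55) in the nuclear and 0.16 (-0.16 to 0.49) in the total fraction, or an odds ratio of 1.12 in each fraction, with bounds of 0.857 to 1.47 and of 0.893 to 1.41. For the median hairpin it was -4.18 over 64 hairpins in the nuclear and -4.04 over 56 hairpins in the total fraction, where 2 with a strand at 0 were left out, a shift to the partner strand with doxycycline. The shift to the partner was at least 2-fold in 57 of the 64 and in 49 of the 56. By size of the shift miR-140 had the 2nd smallest value in each fraction, after miR-136 at 0.12 in the nuclear and miR-145 at 0.0050 in the total fraction. These 2 were named after their values were seen, and their star shares were lower, at 24.5% for miR-136 in the nuclear and 19.5% for miR-145 in the total fraction with doxycycline. Because miR-140 was chosen for a star above its partner in all 4 groups, a shift as large as the median was not open to it.

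**Figure D3:**
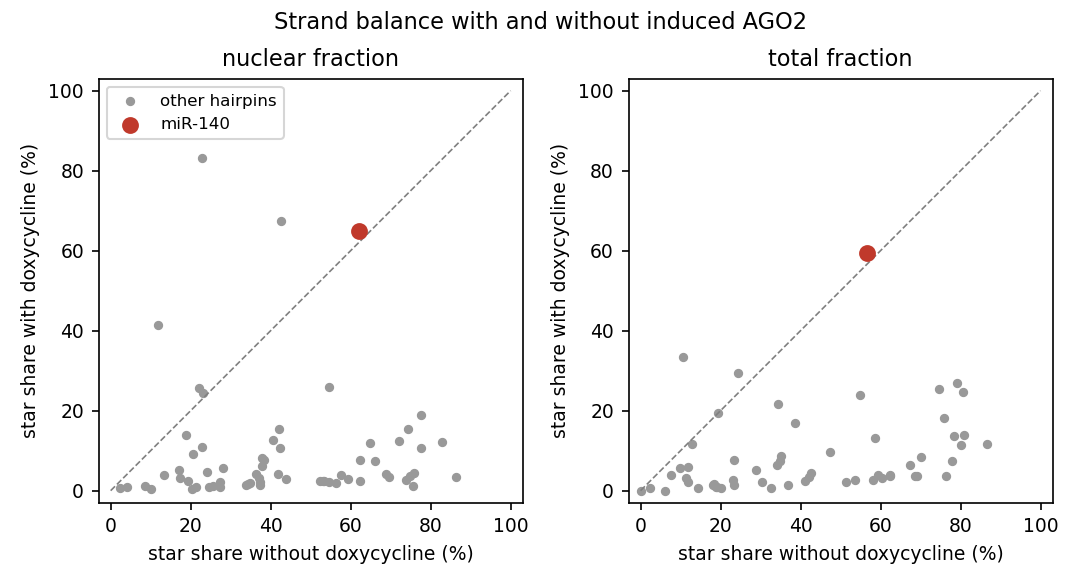
Star share with doxycycline (vertical axis, percent) against that without it (horizontal axis, percent) for each hairpin with at least 10 mean reads in both groups, in the nuclear and the total fraction. miR-140 lies close to the dashed line of equal shares, and most other hairpins lie far below it.

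Between the fractions the star share of miR-140 was higher in the nuclear fraction with doxycycline, at 64.8% against 59.5% in the total fraction. The log2 odds ratio, nuclear over total, was 0.33 (0.17 to 0.49), or 1.26 times, and it was 0.33 (0.05 to 0.60) with the means read as single libraries. Without doxycycline it was 0.33 (-0.16 to 0.81), the same size with an interval that includes no difference. A nuclear gain of this size was not unusual, since miR-140 ranked 27th of 89 hairpins from the top with doxycycline, where the median was -0.03.

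In level, both strands were lower in the nuclear than in the total fraction with doxycycline, relative to the typical entry. From mean counts scaled with TMM factors, the nuclear over total log2 fold was -0.24 (-0.34 to -0.15) for miR-140* and -0.57 (-0.70 to -0.45) for miR-140. Neither reached 2-fold, which 3.97% of 378 entries did downwards and 10.3% upwards, and the median over all entries was -0.04. Without doxycycline miR-140* had 56.3 nuclear and 66.3 total reads and a log2 fold of -0.66 (-0.97 to -0.36), and miR-140 had 34.3 nuclear and 50.7 total reads and one of -0.99 (-1.36 to -0.62), against a median of -0.09 over 189 entries. There 16.9% of entries were at least 2-fold lower, and neither strand was, although both were by library totals, at -1.41 and -1.74, and miR-140 was with TMM factors over all entries, at -1.21.

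Reads of both strands were more numerous with doxycycline, by less than for the median entry tested. miR-140* had 8.63 times (7.35 to 10.2) as many reads with doxycycline as without it in the nuclear and 11.5 times (9.98 to 13.4) in the total fraction. For miR-140 these ratios were 7.68 (6.25 to 9.52) and 10.3 (8.71 to 12.2). The median entry tested had 16.1 times as many in the nuclear and 33.2 times as many in the total fraction. Entries tested needed a mean of at least 10 in 1 of the 2 groups, and most met this only with doxycycline. In the nuclear fraction 363 entries reached 10 with doxycycline and 175 without it, and in the total fraction 357 and 139. The filter itself thus favours high ratios, and nothing is concluded from the distance to the median. The TMM factors used below rest on the same entries. Induction and sequencing depth both enter the read ratios and cannot be told apart.

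Scaled with TMM factors, the log2 fold, doxycycline over none, was -0.86 (-1.09 to -0.62) for miR-140* and -1.03 (-1.32 to -0.72) for miR-140 in the nuclear fraction. In the total fraction it was -1.48 (-1.69 to -1.26) for miR-140* and -1.65 (-1.89 to -1.40) for miR-140. At least 2-fold lower were therefore miR-140 in the nuclear fraction, where 33.7% of 371 entries were, and both strands in the total fraction, where 32.0% of 359 entries were; these shares are near that of entries at least 2-fold higher, 30.5% and 31.8%. The direction depends on the scaling: the folds are positive without it, and in the nuclear fraction also with TMM factors over all entries. The nuclear fold of miR-140 came within 2-fold by library totals, at -0.52, and the total-fraction folds came within it with TMM factors over all entries, at -0.48 and -0.65. By library totals 151 entries were higher and 107 lower in the nuclear fraction, against 113 and 125 with TMM factors.

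**Figure D4:**
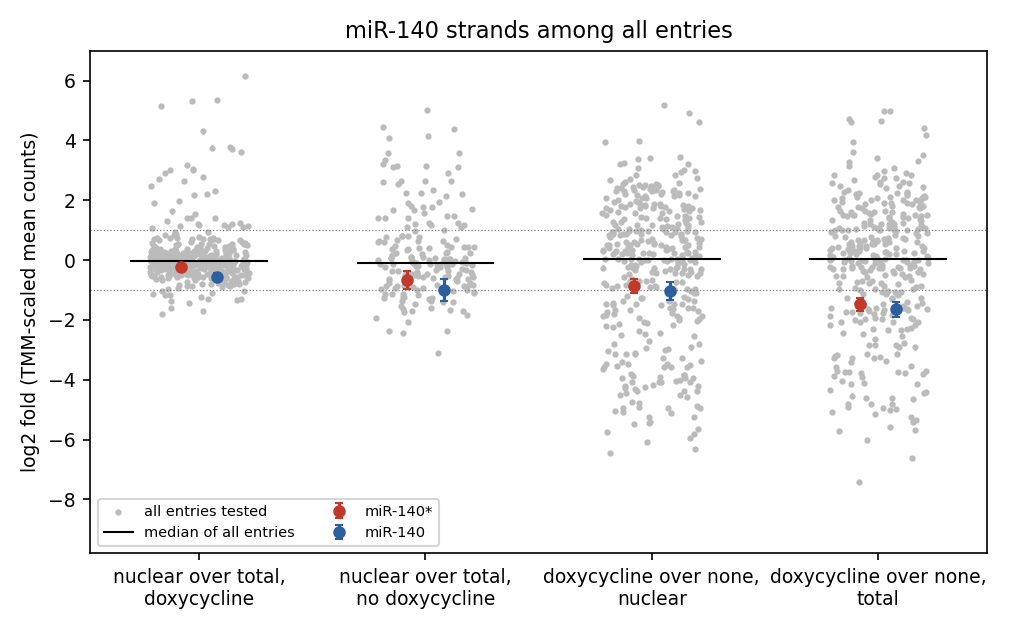
Log2 folds of TMM-scaled mean counts for all tested entries (grey points, spread sideways for view), their median (black line) and the miR-140 strands with 95% counting intervals, in 4 comparisons. Dotted lines mark 2-fold. Both strands lie below the median in each comparison, with miR-140* above miR-140.

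The order of the levels followed the same pattern in both strands once miR-805 was left out of the library totals. This entry held 3.27% of the nuclear reads of induced and 63.7% of those of uninduced cells, and 0.833% and 33.3% in the total fraction. In CPM (reads scaled to a common library total) without miR-805, miR-140* was at 1254 in the nuclear fraction with doxycycline, 1431 in the total fraction with it, 4269 in the nuclear fraction without it and 6191 in the total fraction without it, and no neighbours in this order had overlapping intervals. miR-140 was at 680, 975, 2602 and 4728 in the same order, again with no overlap. These intervals hold counting error only. How many of the other entries had levels as far apart was not counted, so the separation is not particular to miR-140. With miR-805 included, the total fraction with doxycycline and the nuclear fraction without it were not separated, at 1419 and 1551 for miR-140* and at 967 and 945 for miR-140. Among all 689 entries miR-140* ranked 78th and 39th in the nuclear fraction with and without doxycycline, and 68th and 34th in the total fraction. miR-140 ranked 110th and 61st in the nuclear fraction, and 93rd and 41st in the total fraction. In the nuclear fraction with doxycycline miR-140* stood between miR-191 (493 reads) and miR-541 (477 reads), and miR-140 between miR-301a (264 reads) and miR-434-5p (262 reads).

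The strands of miR-140 had the most similar pattern to each other. Likeness was the distance between log2 CPM values, each centred on its mean over the 4 groups, among 122 entries with at least 10 mean reads in every group. The distance between the strands was 0.37, the smallest for either of them. Next to miR-140* came miR-291b-5p at 0.42, miR-296-3p at 0.55 and miR-708 at 0.61. Next to miR-140 came miR-1965 at 0.57, miR-186 at 0.66 and miR-291b-5p at 0.67. With 4 groups behind each value this is a description, and the choice of a star above its partner in every group also limits how far the strands can part.

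Other miRNAs of cartilage and mesenchyme were read less often than miR-140, with few exceptions. Of 14 entries of this list, only miR-27b had more reads than miR-140* in induced cells, with 1408 nuclear and 2747 total reads. miR-143, a mesenchymal miRNA, had 291 nuclear and 529 total reads with doxycycline, just above miR-140 and below miR-140* in each fraction. miR-455, which is also enriched in cartilage, had 3 nuclear and 4.33 total reads with doxycycline and is listed at 0 in both fractions without it. Its star strand had 1.33 nuclear and 4.33 total reads with doxycycline, and 1 and 0.33 without it. The 3p strand of miR-675, made from H19 and also studied in chondrocytes, is listed at 0 in all 4 groups, and its 5p strand averaged 5 reads in the induced and 3.67 in the uninduced nuclear fraction, and 0 and 0.33 in the total fraction. Between the fractions with doxycycline the median log2 fold of the 8 tested entries of the list was -0.34, and 0 were at least 2-fold higher in the nuclear fraction (10.3% of all entries) and 1 at least 2-fold lower (3.97%). For doxycycline over none, 0 of 7 reached 2-fold upwards and 4 downwards in the nuclear fraction (30.5% and 33.7% of all entries), with a median of -1.38. In the total fraction 1 of 8 reached it upwards and 5 downwards (31.8% and 32.0% of all entries), with a median of -1.53, where the medians over all entries were 0.04 and 0.04; without scaling the medians of the list turn positive, to 2.59 and 3.48, and with TMM factors over all entries the nuclear one turns to 0.43. Without doxycycline 0 of 4 were at least 2-fold apart between the fractions, where 23.8% of all entries were higher and 16.9% lower in the nuclear fraction.

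The 7 hairpins listed as known for 2 abundant strands varied in their balance. Of these, miR-142 had its 5p strand as the more abundant in 3 of the 4 groups. This strand took 56.4% of its reads in the nuclear fraction with doxycycline (55.5 to 57.4) and 64.7% without it, but 30.4% (29.6 to 31.2) and 55.0% in the total fraction. The rarer strand of the other 6 hairpins took between 3.24% (miR-378) and 31.7% (miR-126) of nuclear reads with doxycycline, and between 2.73% (miR-378) and 30.9% (miR-199a) of total-fraction reads with it. Without doxycycline it took between 17.3% (miR-378) and 40.5% (miR-9) in the nuclear fraction and between 19.4% (miR-199a) and 50% (miR-126, with 2.67 mean reads on each strand) in the total fraction. For miR-30e the rarer strand was not the same in all groups. Its star took 7.42% (nuclear) and 18.2% (total) with doxycycline. Without doxycycline it took 66.0% and 75.9%, above the star share of miR-140 in each fraction. Of the 14 entries of these hairpins, 5 were above miR-140* in each fraction of induced cells.

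The libraries with doxycycline averaged 400794 (nuclear) and 539627 (total) miRNA reads, and those without it 36329.9 and 16053.4. A count of 0 thus allowed up to 2.50 and 1.85 CPM with doxycycline and 27.5 and 62.3 without it. The stem cell miRNAs miR-290 to miR-295 made up 65.7% of the nuclear reads of induced and 14.3% of those of uninduced cells, and 68.8% and 32.1% in the total fraction, with all 14 entries above 0 in each group. Without miR-805 these shares were 67.9% and 39.3% (nuclear) and 69.4% and 48.2% (total). Markers of fibroblasts, cartilage, liver, muscle, nerve and blood, 25 entries, together took 1.71% and 2.35% in the nuclear fraction and 1.41% and 2.69% in the total fraction, with and without doxycycline. Without miR-805 they took 1.76% and 6.48% (nuclear) and 1.42% and 4.04% (total). Of the 25 entries, 3 were above miR-140* in each fraction with doxycycline and 4 in each fraction without it. With doxycycline these were miR-124 (2848 nuclear and 2683 total reads), miR-142-5p (1915 and 1193) and miR-142-3p (1479 and 2734). Among the markers listed for cartilage, miR-455 and miR-675, no entry passed 5 mean reads in any group. The part of other cells in the miR-140 reads was not tested.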

How the data were processed

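Small RNA recovered with the anti-FLAG antibody, with and without induction of tagged AGO2, was sequenced in 12 libraries. The deposited table holds expected counts (estimated counts of reads per miRNA entry), which the authors averaged over each group, as the values show. That they are means of 3 libraries was inferred: multiplied by 3, at least 78.4% of the values of each column came within 1e-06 of a whole number. The tools named are bcl2fastq 2.17.1 and TopHat, with mm10, per the submitters' processing notes. The counting step is not given in the sources used here.

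The planned quasi-likelihood test of edgeR and DESeq2 could not be run on means. Log2 folds used mean counts scaled with TMM factors (edgeR 4.0.16, R 4.3.3) over entries with a mean of at least 10 in 1 of the compared groups, with exact (Clopper-Pearson) 95% intervals on mean counts times 3. An entry at 0 was set to 3 reads over the group. A fold of 2 is a rule of size. Shares have Wilson intervals, and odds ratios have exact conditional ones. Star entries were paired by name with the entry of the same name without the star. The interval formulas for folds and odds ratios were tested on simulated Poisson counts with a known scaling. The TMM scaling and the pairing of strands were not tested in this way. Python 3.11.15, SciPy 1.17.1 and RNAfold 2.7.2 were used. Named miRNAs were the strands, their neighbours in rank and in pattern, hairpins with a star above its partner, the sharer of the seed and 2 lists. Markers of stem cells and of other cells were named as well. miR-136, miR-299, miR-28 and miR-805 are named outside these groups. Members and lists were chosen with earlier results of these data known.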

Additional observations from a re-analysis of the deposited data

How the results depend on the processing

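No paired analysis was possible because each column is a mean over a group, and no replicate could be left out. DESeq2 was not run. Reads without doxycycline, once scaled for depth, exceeded those with it, so the scaled subtraction left no reads of miR-140. Star shares, strand balances and all folds with median-of-ratios factors stayed within their counting intervals. So did shares after subtraction of the unscaled reads without doxycycline (65.2% nuclear, 59.8% total). That subtraction took only 90.7 of 750 nuclear and 117 of 1287 total reads, with star shares of 62.1% and 56.7%. The shares could hardly move, and nothing is concluded from it. The interval as a single library and the subtraction for the strand balance were chosen after seeing the data. Log2 folds (miR-140*, then miR-140) moved as follows. Nuclear over total with doxycycline gave -0.66 and -0.98 without scaling and -0.45 and -0.78 without the filter. Nuclear over total without doxycycline gave -1.41 and -1.74 from library totals, and -0.24 and -0.56 with no scaling. Nuclear doxycycline over none gave -0.35 and -0.52 by library totals, -1.77 and -1.94 by totals without miR-805, 3.11 and 2.94 without scaling, and 0.95 and 0.78 without the filter. The same in the total fraction gave -2.11 and -2.28 by totals without miR-805, 3.53 and 3.36 without scaling, and -0.48 and -0.65 without the filter. Without the filter, the TMM factors rest on many entries of few reads. The cause of any of these moves was not tested. With at least 1 mean read in place of 10, the star was above in 5 of 105 nuclear hairpins with doxycycline (4.76%). Without doxycycline it was above in 38 of 104 (36.5%). With at least 10 these were 3 of 92 (3.26%) and 25 of 64 (39.1%).

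Entries at least 2-fold higher and lower, in the same order of comparisons, were 39 and 15 of 378, 45 and 32 of 189, 113 and 125 of 371, and 114 and 115 of 359. They were 28 and 44, 59 and 15, 301 and 15, and 330 and 3 of the same entries without scaling. Without the filter more entries of few reads were tested. There they were 170 and 50 of 677, 164 and 122 of 658, 247 and 301 of 682, and 188 and 316 of 624. By library totals the second was 29 and 76, and by totals without miR-805 the third was 60 and 171 and the fourth 70 and 143. Shares without doxycycline rest on 272 and 351 reads.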
